A study of Mus musculus with 2 samples.

Results

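The capillary endothelial cells of mouse tumour-draining inguinal lymph nodes that lacked tip cell, arterial, venous and Cxcl9-high transcripts were examined, 582 of 8091 cells in all, with 224 cells in the ATG5 KO library and 358 in the WT library. A cell had at least 1200 unique molecular identifiers (UMIs, 1 per captured transcript), at least 200 genes and at most 25% of UMIs from mitochondrially encoded genes. A blood endothelial cell held no UMI of Prox1 or Ptprc, at most 1 of Cd79a and Cd3e together, and at least 2 of Cdh5, Pecam1 and Egfl7 together. A member in addition held at least 3 UMIs of Rgcc, Gpihbp1, Cd300lg and Kdr together. It held at most 1 UMI of Esm1 and Angpt2, at most 4 of Cxcl9, at most 1 of Gja5, Bmx and Hey1, and at most 1 of Ackr1, Selp and Chst4. The cells were thus chosen by these measured counts, so the levels of those genes, and all comparisons of the members with other cells of the same libraries, are given as a description with no test.

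The ATG5 KO library came from 9 pooled nodes of animals labelled ATG5LEC-KO, and the WT library from 13 pooled nodes of wild-type animals. LEC stands for lymphatic endothelial cell, so the capillary cells described here are not the cells in which the label places the deletion. In both groups the nodes drained a tumour, and each library pooled sorted endothelial cells, which carry CD31 and lack CD45 and Ter119, with sorted immune cells, which carry CD45 and lack CD31 and Ter119. BD Rhapsody, a bead-based method that counts transcripts from their 3' ends, was used to profile them. The Cre driver, the deleted exon, the animals' age and the number of animals per pool are not given in the sources used here. There was 1 library per genotype and no replicate, so no difference below has a test, and every 95% interval covers counting error only.

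Capillary endothelial cells line the smallest blood vessels and exchange solutes, lipids and hormones with the tissue. Many capillaries carry Gpihbp1, which holds lipoprotein lipase at the vessel wall, the fatty acid carriers Cd36, Fabp4 and Fabp5, and the receptor of vascular endothelial growth factor (VEGF) Kdr. Sprouting capillaries switch on Esm1 and Angpt2, whereas the resting bed does not. In lymph nodes the capillaries feed the high endothelial venules, through which lymphocytes enter.

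The libraries were close in depth, with 23089918 UMIs in the ATG5 KO library and 23649554 in the WT library over all barcodes, and the members held a median of 3829 UMIs and 1699.5 genes in the ATG5 KO library and 3655 UMIs and 1683 genes in the WT library. A median of 10.6% of the UMIs of ATG5 KO members and 9.69% of those of WT members were mitochondrially encoded. Male and female animals were mixed in both pools in different proportions: of the members with Y-linked transcripts or Xist alone, 59.5% (51.3-67.3, 91 of 153) were male in the ATG5 KO library and 80.7% (74.7-85.7, 171 of 212) in the WT library. Sex and genotype are therefore partly mixed up, and values within male and female cells stand beside some of the results. Scrublet, a doublet caller, called 31 cells of the ATG5 KO library and 27 of the WT library, none of them a member, and 14 cell indices occurred in both libraries. Atg5 (ENSMUSG00000038160.7, chromosome 10, 44268358-44364291, plus strand, mm10), the autophagy gene named in the label, had 33.3 CPM (22.5-47.5) in ATG5 KO cells and 37.8 CPM (28.2-49.6) in WT cells among the members, a ratio of 0.881 (0.542-1.41) (levels are UMIs scaled to CPM, a common library size without mitochondrially encoded genes, and ratios are ATG5 KO over WT unless stated otherwise). In LECs its ratio was 0.936 (0.688-1.25), and UMIs counted outside a deleted exon do not check the label.

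The members carried the endothelial and capillary genes that the rule did not use, and almost none of those of stroma or blood cells. Flt1, the VEGF receptor that binds its ligand without strong signalling, was detected in 92.0% of ATG5 KO cells and 89.1% of WT cells, against 1.48% of ATG5 KO and 0.833% of WT B cells. For genes that B cells do not make, B cells show the share that free RNA gives. Their median depth was 2727 UMIs in the ATG5 KO library and 2721 UMIs in the WT library. Plvap, the protein of capillary diaphragms, was detected in 94.2% of ATG5 KO cells and 89.7% of WT cells, against 0.903% of ATG5 KO and 1.29% of WT B cells. Of 13 capillary genes outside the rule, 12 had at least 100 UMIs over both libraries, and the lowest was Ramp3. These genes set the members little apart from the blood endothelial cells that failed the member rule. Of the 12, 1 was 1.5-fold or more higher among the members in both libraries, against 1.67% of all genes. Their median log2 difference was 0.24 in the ATG5 KO and 0.28 in the WT library. For the 4 capillary genes of the rule it was -0.04 in the ATG5 KO and 0.42 in the WT library. The pericyte list of 7 genes summed to 42.2 CPM in ATG5 KO members, with 4 genes at 0, and 56.7 CPM in WT members, with 3 genes at 0. In ATG5 KO members the B cell list summed to 28.8 CPM, the T cell list to 9.98, the fibroblast and smooth muscle lists to 4.44 each and the adipocyte list to 3.33. In WT members the B cell list summed to 30.5 CPM, the T cell list to 8.72, the fibroblast list to 2.91, the smooth muscle list to 5.81 and the adipocyte list to 7.27. Blood cell genes differed more: the myeloid list summed to 12.2 CPM in ATG5 KO members and 29.1 CPM in WT members, the erythroid list to 1.109 and 18.9 CPM in ATG5 KO and WT members, and the platelet list to 0 CPM in ATG5 KO members, with all 4 genes at 0, and 16.7 CPM in WT members. None of these lists had a gene with 100 UMIs among the members. The part of these genes in the results below was not tested.

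A small group of members held lymphatic transcripts although they had no Prox1 UMI. Cells with at least 2 UMIs of Lyve1, Mmrn1, Reln and Pdpn together, a limit chosen after the data had been seen, were 2 of 224 in the ATG5 KO library (0.893%, 0.108-3.19) and 24 of 358 in the WT library (6.70%, 4.34-9.81). The 26 cells had 2629 CPM of the hyaluronan receptor Lyve1 and 2021 CPM of Mmrn1, against 2.76 and 0.461 CPM in the other 556 members. They had 421 CPM of Flt1 and 122 CPM of Emcn, against 2277 and 551 CPM in the others, and of the 26 cells 0 in the ATG5 KO library and 7 in the WT library had a UMI of either gene. Kdr, 1 of the 4 capillary genes of the rule, is also made by LECs, which had 1366 CPM of it. Of the 4 capillary genes, Rgcc, Gpihbp1 and Cd300lg alone reached 3 UMIs in 0 of the 2 marked ATG5 KO cells and 7 of the 24 marked WT cells, against 79.9% of all ATG5 KO members and 80.7% of all WT members. The label of a blood capillary cell thus did not hold for most of these 26 cells, and results that rest on them are given with and without them.

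**Figure D1:**
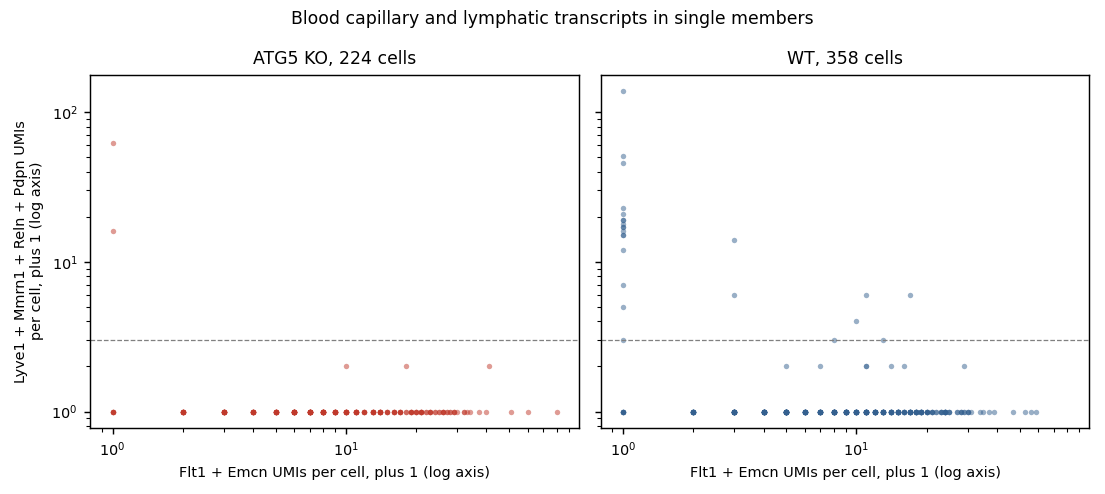
UMIs of 4 lymphatic genes (vertical, log axis) against UMIs of the blood capillary genes Flt1 and Emcn (horizontal, log axis) in each member, with 1 added to both, for 224 ATG5 KO cells (left) and 358 WT cells (right). The dashed line marks 2 UMIs, and the cells on or above it, 2 in the ATG5 KO library and 24 in the WT library, lie mostly where Flt1 and Emcn are 0.

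The working name calls the members quiescent, but the rule set no limit on cycling genes. No UMI of 12 cycling genes (Mki67, Top2a and others of DNA synthesis and mitosis) was found in 160 of the 224 ATG5 KO members (71.4%) and in 272 of the 358 WT members (76.0%). At the other end, 16 ATG5 KO members (7.14%, 4.14-11.3) and 23 WT members (6.42%, 4.12-9.48) held at least 5 UMIs of these genes and are called cycling-marked below, and the highest cell held 132 UMIs in the ATG5 KO library and 88 UMIs in the WT library. Such cells were 8.11% of the other blood endothelial cells and 6.80% of LECs in the ATG5 KO library, and 8.503% of the other blood endothelial cells and 6.47% of LECs in the WT library, and the counting intervals of these shares overlap those of the members. The median log2 ratio of the listed cell cycle genes over the other blood endothelial cells was 0.51 in the ATG5 KO library and -0.01 in the WT library. Ccnd1, the cyclin of early cell cycle entry, had 797 CPM (739-857) in ATG5 KO cells and 889 CPM (839.8-940.2) in WT cells, a ratio of 0.896 (0.816-0.983).

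Members just inside and just outside the limit of 3 capillary UMIs differed in both directions in capillary genes outside the rule. Over both libraries, 34 cells held exactly 3 such UMIs and 21 cells that met every other condition held 2. The cells inside had a median of 2231.5 UMIs, 1954 CPM of Fabp4, 485 CPM of Cd36, 2350.4 CPM of Plvap and 1226 CPM of Flt1, and the cells outside a median of 2355 UMIs, 3196 CPM of Fabp4, 1721 CPM of Cd36, 1106 CPM of Plvap and 1008 CPM of Flt1. Of these cells 4 inside and 2 outside were lymphatic-marked.

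Members made up a smaller part of the blood endothelial cells in the ATG5 KO library. They were 46.4% (41.9-50.9, 224 of 483 cells) in the ATG5 KO library and 54.9% (51.0-58.8, 358 of 652 cells) in the WT library. The order was opposite in male and female cells, a difference that was not tested. Members were 39.6% (91 of 230) of the male and 55.4% (62 of 112) of the female blood endothelial cells in the ATG5 KO library. In the WT library they were 50% (171 of 342) of the male and 48.2% (41 of 85) of the female ones. Cells with no sex transcript, or with those of both sexes, were left out of these shares. Of the cells with none, 69 of 136 were members in the ATG5 KO library and 143 of 220 in the WT library. The limit on Cxcl9, a chemokine induced by interferon gamma, was the only unmet condition of 32 ATG5 KO cells and 18 WT cells. Without that limit the share was 53.0% in the ATG5 KO library and 57.7% in the WT library. The sprouting class that failed only the limit on Esm1 and Angpt2 held 66 ATG5 KO cells, which is 13.7% (10.7-17.1) of the blood endothelial cells, and 64 WT cells, which is 9.82% (7.64-12.4).

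Beside the other blood endothelial cells, the members were highest in Aqp7, Car4, Atp1b1 and Itih5. Of 4669 genes with at least 100 UMIs among the members, 78 (1.67%) were 1.5-fold or more higher than in the other blood endothelial cells in both libraries and 51 (1.09%) were 1.5-fold or more lower. Car4 (ENSMUSG00000000805.18, chromosome 11, 84957786-84966044, plus strand), a carbonic anhydrase tethered to the luminal surface of capillaries, stood at 202 CPM (174-233) in ATG5 KO cells and 138 CPM (119-159) in WT cells, and its level over that of the other blood endothelial cells was 4.63 in the ATG5 KO library and 2.93 in the WT library. Aqp7 (ENSMUSG00000028427.13, chromosome 4, 41033074-41048139, minus strand), a channel for water and glycerol, was detected in 6.25% of ATG5 KO cells and 9.497% of WT cells, against 0% (up to 0.238% by the 95% interval) of ATG5 KO and 0% (up to 0.279% by the 95% interval) of WT B cells, and had such a ratio of 21.9 in the ATG5 KO library and 4.68 in the WT library. Atp1b1, a subunit of the sodium pump, had 8.04 in the ATG5 KO library and 2.89 in the WT library, and Itih5, a hyaluronan-binding matrix protein, had 4.73 in the ATG5 KO library and 2.61 in the WT library. Serpine2, a protease inhibitor, had 4.25 in the ATG5 KO library and 1.86 in the WT library. These 5 genes were picked from those ranked highest by this ratio, so values above 1 in both libraries follow from the choice. For these 5 the ratio was larger in the ATG5 KO library, and whether this holds for genes at large was not tested. The classes that make up the other blood endothelial cells differed in share between the libraries, and their part in these ratios was not tested.

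Cxcl12 (ENSMUSG00000061353.11, chromosome 6, 117168535-117181367, plus strand), the chemokine that binds Cxcr4, marked the members relative to venous and sprouting cells but not relative to arterial cells. Its level was 615 CPM in ATG5 KO and 1114 CPM in WT members, 1102 CPM in ATG5 KO and 1718 CPM in WT arterial cells, 132 CPM in ATG5 KO and 183 CPM in WT venous cells and 136 CPM in ATG5 KO and 335 CPM in WT cells with Esm1 and Angpt2. Between the genotypes it was lower in ATG5 KO members, with a ratio of 0.552 (0.4996-0.608), and also in the other blood endothelial cells (0.465, 0.413-0.524), in male members (0.612) and in female members (0.298). Enpp2, which makes the lipid signal lysophosphatidic acid and is known from high endothelial venules, stood at 2574 CPM in ATG5 KO and 2343 CPM in WT members and 2289 CPM in ATG5 KO and 2989 CPM in WT venous cells. Its level over the other blood endothelial cells was 2.65 in the ATG5 KO library and 1.26 in the WT library. Tcim, Clic5, Cited2, Fmo1, Snai2, Thrsp, Jam3, Inpp4a, Ccdc85a, Lrmda, Gas6, Itm2a and the heat shock genes Hspa1a and Hspa1b completed the 20 genes highest among the members, with the smaller of their library ratios between 1.83 and 2.597.

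The genes lowest against the other blood endothelial cells were chosen among those with at least 100 UMIs in the other cells, so they had to be low among the members and are not part of the 51 above. The matrix inhibitor of calcification Mgp had 0 UMIs in ATG5 KO members and 16 in WT members, 15 of them in 1 cell, and 788 CPM in ATG5 KO and 851 CPM in WT arterial cells. Sele, the E-selectin of inflamed venules, had 5 UMIs in ATG5 KO cells and 11 UMIs in WT cells. Bmp4, Pcsk5, Slc45a4, Col5a2, S100a4, Celf4, Igf2 and Mmp2, the rest of the 10 lowest, each had at most 11 UMIs in ATG5 KO members and 16 UMIs in WT members.

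**Figure D2:**
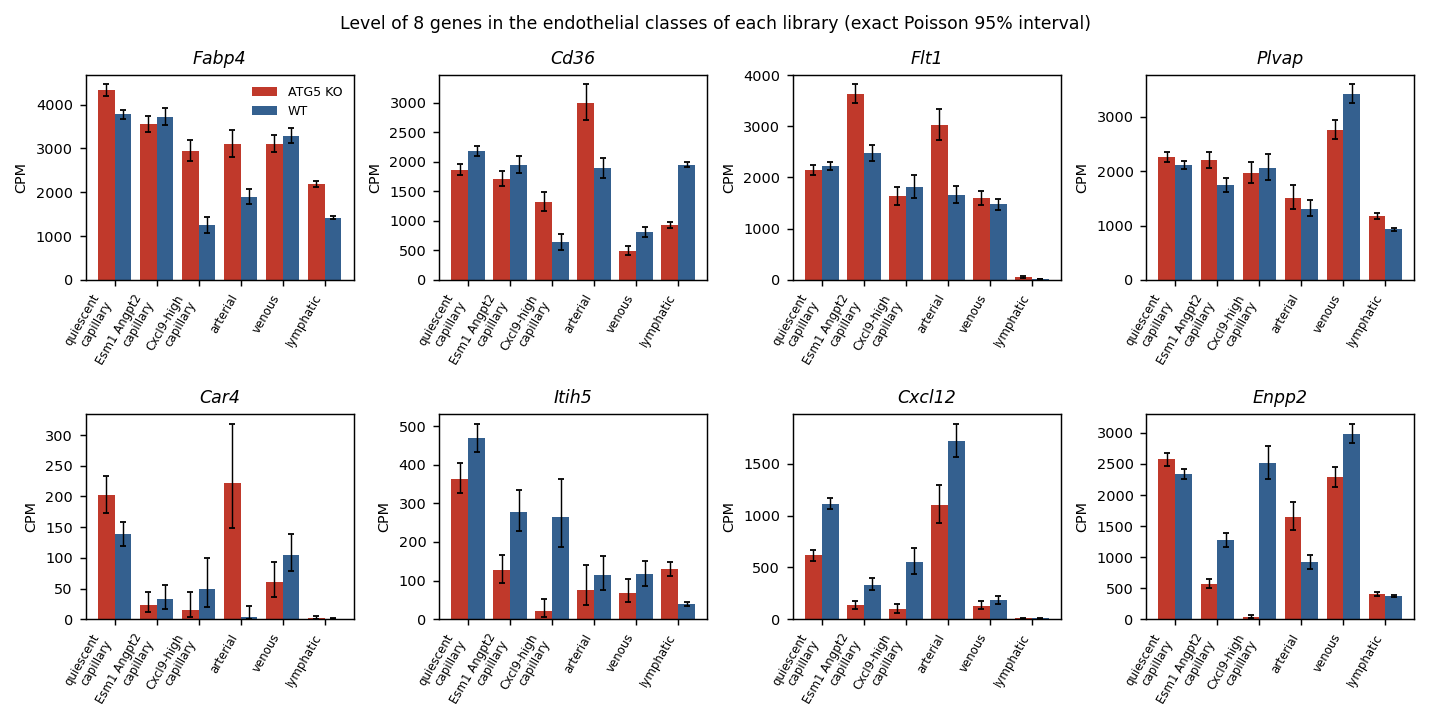
Level (CPM, linear axes from 0) of 8 genes in 6 endothelial classes of the ATG5 KO library (red, left bar) and the WT library (blue, right bar), with exact Poisson 95% intervals that cover counting error only. Car4 reached 202 CPM in ATG5 KO and 138 CPM in WT members, Cxcl12 was highest in arterial cells, and Flt1 was near 0 in lymphatic cells.

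The fatty acid genes split between the genotypes. Of 14 listed genes 9 had at least 100 UMIs, 1 of them was 1.5-fold or more higher in ATG5 KO cells and 2 were lower, against 4.28% of all 4669 genes higher and 5.14% lower. Fabp5 (ENSMUSG00000027533.10, chromosome 3, 10012548-10016607, plus strand), a fatty acid carrier, had 693 CPM (640.1-749.9) in ATG5 KO cells and 432 CPM (398-469) in WT cells, a ratio of 1.60 (1.43-1.80). The ratio was 1.18 in male and 2.08 in female members, and 1.35 in the other blood endothelial cells. Fabp4 (ENSMUSG00000062515.3, chromosome 3, 10204088-10208576, minus strand), another carrier, had 4324 CPM (4189.7-4462) in ATG5 KO cells and 3779.6 CPM (3678-3884) in WT cells, a ratio of 1.14 (1.10-1.19). More ATG5 KO members had any Fabp4 UMI: 82.6% of ATG5 KO cells and 60.1% of WT cells, against 0.710% of ATG5 KO and 1.82% of WT B cells. After every cell had been thinned to 1500 UMIs the share was 77.5% in ATG5 KO members and 53.1% in WT members. The cells without Fabp4 were thus a larger part of the WT members, while the summed level differed little.

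Lipoprotein lipase and its inhibitor were lower in ATG5 KO cells. Lpl (ENSMUSG00000015568.16, chromosome 8, 68880491-68907448, plus strand), lipoprotein lipase, had 48.8 CPM (35.5-65.5) in ATG5 KO cells and 140.3 CPM (121-162) in WT cells, a ratio of 0.348 (0.245-0.485), and the value was 0.326 without lymphatic-marked cells, 0.320 in male and 0.278 in female members. Few cells carried it, 8.48% of ATG5 KO cells and 14.0% of WT cells, against 0.129% of ATG5 KO and 0% (up to 0.279% by the 95% interval) of WT B cells. Angptl4 (ENSMUSG00000002289.16, chromosome 17, 33773750-33781830, minus strand), a secreted inhibitor of lipoprotein lipase, had 24.4 CPM (15.3-37.0) in ATG5 KO cells and 94.5 CPM (78.9-112) in WT cells, a ratio of 0.258 (0.156-0.408) that was 0.377 without lymphatic-marked cells. Its direction was not shared by the sexes: male members gave 0.195, while female members held 8 UMIs in the ATG5 KO library and 0 in the WT library, which is at least 1.61-fold higher. Gpihbp1, a gene of the rule, had 765 CPM (709-825) in ATG5 KO cells and 659 CPM (616-703) in WT cells, and the scavenger receptor Cd36 had 1868 CPM (1780.0-1959.6) in ATG5 KO cells and 2182 CPM (2105-2261) in WT cells, a ratio of 0.856 (0.806-0.909) that was 0.626 in male and 1.35 in female members. Pparg, a transcription factor of lipid storage, had a ratio of 1.13 (0.911-1.41), the transcription factors Meox2 and Tcf15 of 0.945 (0.703-1.26) and 1.06 (0.645-1.74), and the acyl-CoA synthetases Acsl3 and Acsl5 of 1.07 (0.499-2.22) and 0.975 (0.710-1.33). The carriers Slc27a1, Slc27a3 and Slc27a4 had at most 13 UMIs in either library. The list median was -0.04 on the log2 scale, against 0.03 over all genes tested.

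The receptors of VEGF were close in both libraries. Kdr, the main signalling receptor and a gene of the rule, had 1920.3 CPM (1831-2013) in ATG5 KO cells and 2048 CPM (1973-2125) in WT cells, and Flt1 had 2149 CPM (2054-2247) in ATG5 KO cells and 2216 CPM (2138-2296) in WT cells, a ratio of 0.970 (0.915-1.03). The co-receptor Nrp1 had a ratio of 0.986 (0.896-1.09), and Nrp2, which also binds VEGF-C, had 440.4 CPM (398-486) in ATG5 KO cells and 318 CPM (289-349.6) in WT cells, a ratio of 1.38 (1.20-1.59). Flt4, the receptor of VEGF-C, had 104 CPM (84.3-128) in ATG5 KO cells and 86.5 CPM (71.7-104) in WT cells. The ligands Vegfa, Vegfb, Vegfc and Pgf had at most 21 UMIs in either library. No gene of this list was 1.5-fold apart among the 5 measured, against 4.28% of all genes higher and 5.14% lower, and the list median was -0.02. The capillary genes outside the rule had a median of 0.14, with Fabp5 alone past 1.5-fold. Emcn, a mucin-like surface protein of capillaries and veins, had 636 CPM in ATG5 KO cells and 462 CPM in WT cells, a ratio of 1.38 (1.23-1.54). Sparcl1, a matrix protein, had a ratio of 1.23 (1.17-1.30), Aplnr, the apelin receptor, of 1.35 (1.20-1.53), Car4 of 1.46 (1.19-1.80), Plvap of 1.07 (1.01-1.13), Cav1, the coat protein of caveolae, of 0.959 (0.889-1.03), Ly6c1 of 0.915 (0.860-0.973), Podxl of 0.788 (0.674-0.919) and Ramp3 of 0.931 (0.598-1.43).

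Over all genes measured, 200 of 4669 (4.28%) were 1.5-fold or more higher in ATG5 KO members and 240 (5.14%) were lower. Without the lymphatic-marked cells the counts were 181 (4.03%) and 194 (4.32%) of 4487 genes. Without them the genes Mpdz, Frmd4a and Cenpe came among the 15 highest, with ratios of 2.16, 1.94 and 2.12.

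Among the genes higher in ATG5 KO members were a chromatin enzyme, an imprinted gene and regulators of growth factor signalling. Ezh2 (ENSMUSG00000029687.16, chromosome 6, 47530139-47595341, minus strand), the methyltransferase of Polycomb complexes, had 87.6 CPM (69.4-109) in ATG5 KO cells and 26.9 CPM (18.9-37.1) in WT cells, a ratio of 3.26 (2.18-4.95). The members of both libraries held less Ezh2 than free RNA did (0.888 times in the ATG5 KO library and 0.337 times in the WT library, free RNA being read from barcodes with 10 to 100 UMIs), and the other blood endothelial cells gave 0.763 (0.552-1.05), on the other side of 1. Mest (ENSMUSG00000051855.15, chromosome 6, 30723547-30748465, plus strand), an imprinted gene expressed in growing tissues, had 357 CPM (319-398) in ATG5 KO cells and 146 CPM (127-168) in WT cells, a ratio of 2.45 (2.04-2.93). Mest was detected in 16.1% of ATG5 KO cells and 8.94% of WT cells, against 0.323% of ATG5 KO and 0% (up to 0.279% by the 95% interval) of WT B cells. A single ATG5 KO cell held 86 of its 322 UMIs, and without the cells with at least 5 cycling UMIs the ratio was 1.64. It was 3.91 in male and 0.505 in female members.

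Igfbp4, a secreted protein that binds insulin-like growth factors, had 430.4 CPM (389-475) in ATG5 KO cells and 261 CPM (235-289) in WT cells, a ratio of 1.65 (1.43-1.91) that was 2.35 without lymphatic-marked cells, 2.08 in male and 3.94 in female members. Insr, the insulin receptor, had 275 CPM (242-312) in ATG5 KO cells and 166 CPM (146-189) in WT cells, a ratio of 1.65 (1.38-1.99), against 1.03 in the other blood endothelial cells. These were the 2 genes past 1.5-fold, both higher, among the 5 measured of the insulin-like growth factor list, against 4.28% of all genes higher. Igfbp3 and Igfbp7 had ratios of 1.12 (1.05-1.20) and 0.930 (0.908-0.953). Inhbb, a subunit of activins, had 332 CPM (295-372) in ATG5 KO cells and 187 CPM (165-211) in WT cells, a ratio of 1.78 (1.498-2.11), and was also higher in the other blood endothelial cells (1.502). Pde4d, which breaks down cyclic AMP, had 366 CPM (328-408) in ATG5 KO cells and 178 CPM (156-202) in WT cells, a ratio of 2.06 (1.74-2.44), with levels under those of free RNA in both libraries. Arhgap18 had a ratio of 1.78 (1.52-2.07), Chst7, a sulfotransferase gene on the X chromosome, of 2.65 (1.75-4.06), and the transcription factor Pbx3 of 2.45 (1.82-3.31). Values within the sexes are given neither for Chst7 nor for Itm2a, another X-linked gene named below. Gm14221, D5Ertd615e, Ube2e2, Msantd2 and Nol8 had ratios between 2.13 and 2.88. The chemokine gene Ccl21a had a ratio of 2.65 (2.02-3.49), but 1 ATG5 KO cell held 68 of its 151 UMIs, and reads of its near-identical copies may be shared with it. Fabp5, described above, completed the 15.

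**Figure D3:**
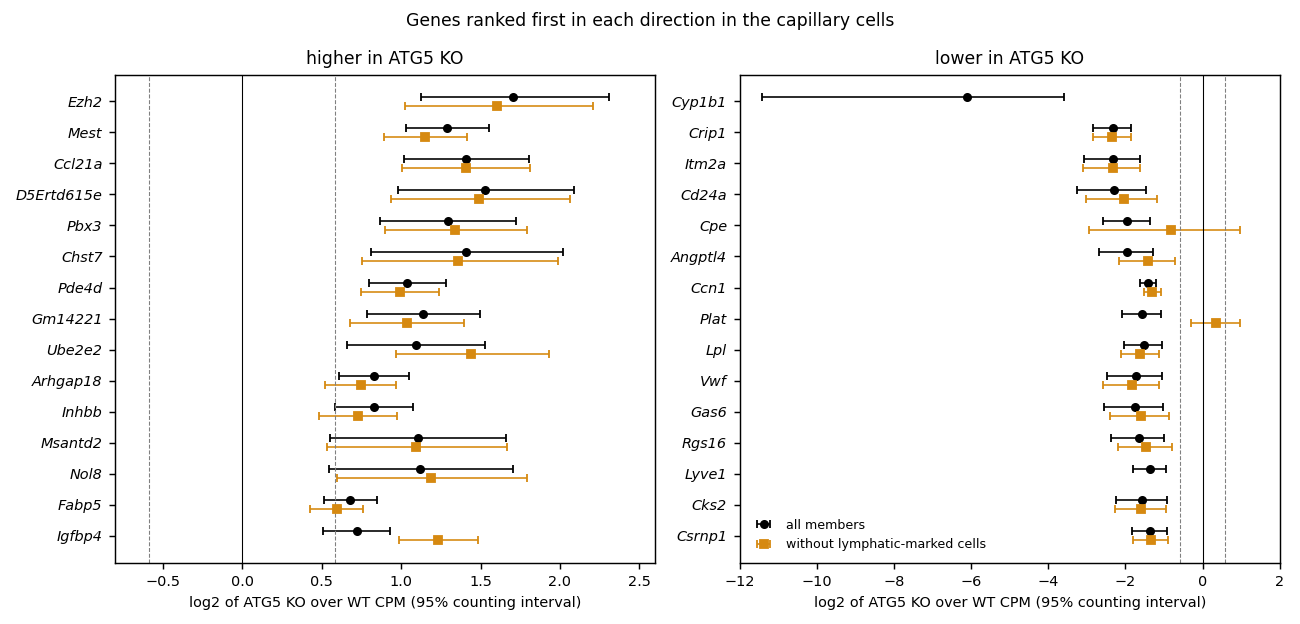
log2 ratio of ATG5 KO over WT CPM with its 95% counting interval for the 15 genes ranked first as higher (left) and as lower (right), over all members (black circles) and without lymphatic-marked cells (orange squares). Dashed lines mark 1.5-fold; Plat crossed 0 without lymphatic-marked cells, and Cyp1b1 and Lyve1 had too few UMIs left for a ratio.

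The genes lower in ATG5 KO members comprised those carried by the lymphatic-marked cells and those spread over the capillary cells. Cyp1b1, a cytochrome, had 1 UMI in ATG5 KO cells and 105 UMIs in WT cells, of which the 26 marked cells held 105, and Lyve1 had 58 UMIs in ATG5 KO cells and 229 UMIs in WT cells, 281 of them in these cells. Plat, the tissue plasminogen activator, had a ratio of 0.339 (0.237-0.476) over all members and of 1.27 (0.818-1.97) without them. The neuropeptide-processing enzyme Cpe had 0.259 (0.167-0.388) over all members and 0.569 (0.130-1.97) without them. The fibronectin gene Fn1 had 2 UMIs in ATG5 KO cells and 125 UMIs in WT cells, 112 of them in marked cells.

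The others remained below 1 without those cells. Crip1 (ENSMUSG00000006360.11, chromosome 12, 113146316-113153879, plus strand), a small LIM protein, had 45.5 CPM (32.6-61.7) in ATG5 KO cells and 228 CPM (203-254) in WT cells, a ratio of 0.200 (0.141-0.277) over all members and 0.198 without marked cells. It was detected in 12.5% of ATG5 KO cells and 39.1% of WT cells, against 16.1% of ATG5 KO and 25% of WT B cells. The ATG5 KO share thus did not exceed the B cell share, but whether B cells make Crip1 themselves was not tested. The ratio of Crip1 was 0.228 in the other blood endothelial cells, 0.278 in LECs and 0.557 in B cells. Itm2a (ENSMUSG00000031239.5, chromosome X, 107397099-107403376, minus strand), a membrane protein gene on the X chromosome, had 21.1 CPM (12.7-32.9) in ATG5 KO cells and 105 CPM (88.3-123) in WT cells, a ratio of 0.201 (0.118-0.326), with 0.209 in the other blood endothelial cells and 1.96 in LECs. In ATG5 KO members the levels of Crip1 and Itm2a were 0.659 and 0.496 times that of free RNA. Ccn1 (ENSMUSG00000028195.4, chromosome 3, 145646976-145649981, minus strand), a matrix protein induced by stretch and growth factors, had 237 CPM (207-271) in ATG5 KO cells and 632 CPM (591-676) in WT cells, a ratio of 0.375 (0.322-0.436), with 0.456 in male and 0.144 in female members. Vwf, the clotting factor carrier of larger vessels, had a ratio of 0.302 (0.180-0.486), 1 WT cell holding 31 of its 106 UMIs. Gas6, a ligand of TAM receptors, had 21.1 CPM (12.7-32.9) in ATG5 KO cells and 71.2 CPM (57.8-86.8) in WT cells, a ratio of 0.296 (0.171-0.487). Rgs16, an inhibitor of G protein signalling, had 0.319 (0.194-0.504), the cell cycle protein Cks2 0.338 (0.210-0.524) and the surface protein Cd24a 0.202 (0.104-0.363). Lpl and Angptl4 are given above and Csrnp1 below.

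Ranked again without the lymphatic-marked cells, 6 other genes came among the 15 lowest. Slc6a6, the taurine transporter, had 258 CPM (226-294) in ATG5 KO cells and 502 CPM (466-541) in WT cells, a ratio of 0.515 (0.442-0.598) over all members and 0.495 without those cells. The urea transporter Slc14a1 had ratios of 0.358 (0.232-0.536) with and 0.333 without those cells. The membrane collagen Col13a1 had 0.344 (0.213-0.534) with and 0.320 without them, and was higher in ATG5 KO among the other blood endothelial cells (2.90). The ribosomal protein gene Rpl8 and the phosphatase gene Ppp1ca were also lower in ATG5 KO in the other classes compared. Rpl8 had ratios of 0.424 in the members, 0.462 in the other blood endothelial cells, 0.527 in LECs and 0.488 in B cells, and Ppp1ca of 0.411, 0.486, 0.433 and 0.450 in the same order. Kctd10 had 0.373 in the members and 0.478 in the other blood endothelial cells.

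Immediate early genes, which cells switch on within minutes of a growth factor or stress signal, were lower in ATG5 KO members in larger number than genes at large. Of 30 listed genes 24 had at least 100 UMIs, 0 of them were 1.5-fold or more higher and 10 were lower, against 5.14% of all genes lower, and the list median was -0.39. Csrnp1 (ENSMUSG00000032515.8, chromosome 9, 119971163-119984658, minus strand), a nuclear protein induced by axin, had 59.9 CPM (45.0-78.2) in ATG5 KO cells and 154 CPM (134-176) in WT cells, a ratio of 0.389 (0.283-0.526). Socs3 (ENSMUSG00000053113.3, chromosome 11, 117966079-117970047, minus strand), an inhibitor of cytokine signalling, had 53.3 CPM (39.3-70.6) in ATG5 KO cells and 128 CPM (109.7-148) in WT cells, a ratio of 0.416 (0.296-0.576). Ppp1r15a (ENSMUSG00000040435.12, chromosome 7, 45522916-45526268, minus strand), which directs the phosphatase that ends the integrated stress response, had 158 CPM (133-186) in ATG5 KO cells and 321 CPM (292-353) in WT cells, a ratio of 0.490 (0.403-0.594). The stress-induced transcription factor Atf3 had a ratio of 0.504 (0.401-0.629) and Ier2 of 0.509 (0.389-0.659). Ier3, Ier5, Junb, Klf10 and Maff had ratios between 0.581 and 0.644. The most strongly detected members of the list lay closer together: Fos had 1418 CPM in ATG5 KO cells and 1701 CPM in WT cells, a ratio of 0.834 (0.778-0.893), Jun of 0.844 (0.794-0.898) and Egr1 of 0.825 (0.768-0.886).

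The same list was lower in ATG5 KO in other cells and differed between the sexes. Its median was -0.46 in the other blood endothelial cells, with 10 of 26 genes lower, -1.17 in LECs, with 24 of 29 lower, and -0.19 in B cells, with 0 of 27 lower. No share over all genes is given for these other cells, so the counts cannot be set against genes at large there. Among the members the median of the list was -0.85 in male cells (91 ATG5 KO, 171 WT) and 0.04 in female cells (62 ATG5 KO, 41 WT). Each of these medians covers only the listed genes with at least 100 UMIs in members of that sex, so they rest on different sets of genes. Over all genes 2632 reached that limit in male and 791 in female members, against 4669 in all members. Csrnp1 had 0.285 in male and 0.991 in female members, Junb 0.502 in male and 1.02 in female members, and Fos 0.530 in male and 1.47 in female members. Without lymphatic-marked cells 9 of 24 genes were lower, with a median of -0.43. How far the sex of the cells bears on the pooled value was not tested. In each library the list stood higher among the members than among the other blood endothelial cells, with a median log2 difference of 0.52 in the ATG5 KO library and 0.50 in the WT library, and 5 genes (Jun, Fosb, Nr4a1, Ier2 and Ier5) were 1.5-fold or more higher in both.

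**Figure D4:**
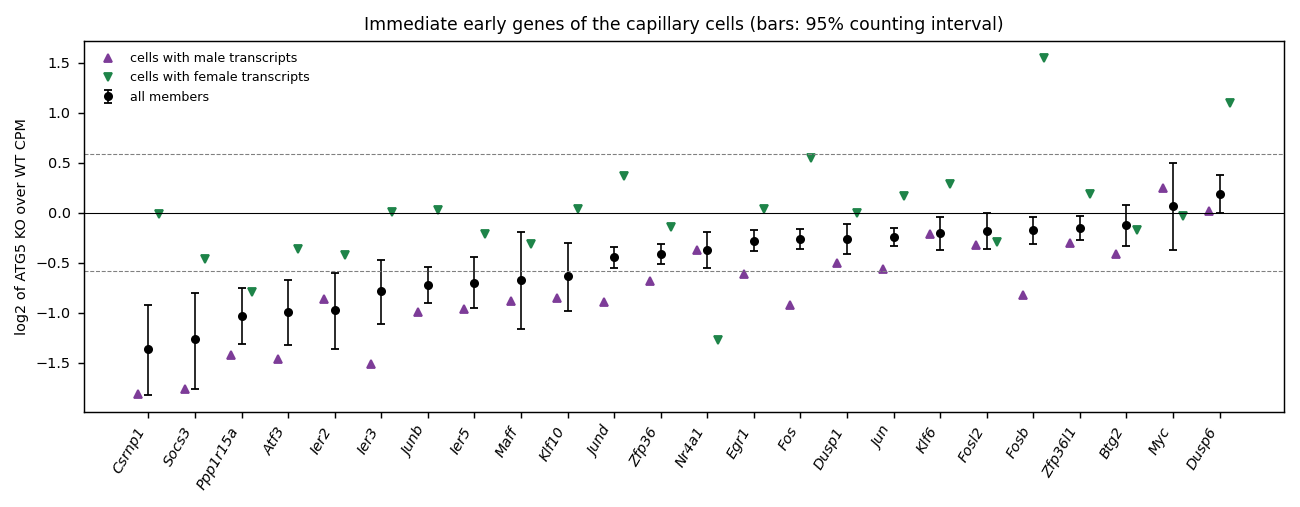
log2 ratio of ATG5 KO over WT CPM of the 24 measured immediate early genes over all members (black, with 95% counting intervals), in male members (purple, pointing up) and in female members (green, pointing down); dashed lines mark 1.5-fold. Most male values lie under the pooled ones, and female values scatter around 0, with Nr4a1 and Ppp1r15a the lowest of them. The medians of -0.85 in male and 0.04 in female cells cover only the genes with at least 100 UMIs in that sex, not all 24.

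Promoters of the 10 lower immediate early genes were read to show what stands before their starts. The table of RefSeq promoters (GRCm38.p6) held 8 of the 10, with 13 starts, and Ier2 and Klf10 were not in it. The cyclic AMP response element, TGACGTCA, which reads the same on both strands, stood within the 250 bases before 2 of these 13 starts, against 508 of 32851 starts of all genes (1.55%). Over the whole list it stood before 4 of 33 starts. The AP-1 element TGANTCA, searched on both strands, stood before 1 of the 13 starts and 2217 of 32851 (6.75%) in all, and TGACGTCA does not contain TGANTCA. The sequences are shown for the genes that hold the cyclic AMP response element, 5' to 3' on the gene's strand, with that element in capitals.
Ppp1r15a, chr7:45526269-45526518, minus strand: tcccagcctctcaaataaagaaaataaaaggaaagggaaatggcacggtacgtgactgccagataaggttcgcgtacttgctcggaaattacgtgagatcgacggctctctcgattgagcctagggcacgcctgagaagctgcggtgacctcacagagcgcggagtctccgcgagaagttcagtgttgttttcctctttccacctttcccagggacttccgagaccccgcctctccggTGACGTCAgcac
Maff, chr15:79347270-79347519, plus strand: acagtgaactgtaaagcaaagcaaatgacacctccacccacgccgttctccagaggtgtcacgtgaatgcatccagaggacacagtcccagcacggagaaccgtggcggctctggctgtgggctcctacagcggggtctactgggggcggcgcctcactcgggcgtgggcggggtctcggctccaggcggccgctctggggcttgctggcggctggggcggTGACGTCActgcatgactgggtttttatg
The element began 12 bases before the start of Ppp1r15a and 29 bases before that of Maff, whose ratios were 0.490 and 0.630. A match is a description of the letters only.

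Genes of growth arrest and of Notch signalling had medians under 0, among the members and in the other cells compared. The growth arrest median was -0.42 in the other blood endothelial cells, -0.41 in LECs and -0.03 in B cells. The Notch median was -0.25, -0.15 and -0.28 in the same order. In male members the growth arrest median was -0.71 and in female members -0.18, each over only the listed genes with at least 100 UMIs in that sex. Of 10 genes of quiescence and growth arrest measured among the members, 3 were 1.5-fold or more lower and 0 higher. The shares over all genes were 5.14% lower and 4.28% higher. The list median was -0.47, and 1 of the 10 is a gene of the rule, so the choice of cells enters it. Without cycling-marked cells 2 of 10 were lower, Txnip having 0.668. The 3 genes were Gas6, the flow-induced transcription factor Klf2, with 209 CPM (179.8-241) in ATG5 KO cells and 389 CPM (357-423) in WT cells and a ratio of 0.536 (0.452-0.634), and Txnip, a glucose-sensing inhibitor of thioredoxin, with 332 CPM (295-372) in ATG5 KO cells and 539 CPM (501-579) in WT cells and a ratio of 0.616 (0.537-0.705). Txnip had 0.425 in male and 1.57 in female members. The cell cycle inhibitors Cdkn1a and Cdkn1b had ratios of 0.694 (0.567-0.847) and 0.695 (0.573-0.841). In both libraries the level of Klf2 was under that of free RNA (0.590 times in the ATG5 KO and 0.754 times in the WT library). Klf4, the partner of Klf2 in the endothelial response to flow, had 0.718 (0.632-0.814).

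Of 11 measured Notch genes 3 were 1.5-fold or more lower, against 5.14% of all genes: the target Hes1 with 199 CPM in ATG5 KO cells and 329 CPM in WT cells and a ratio of 0.604 (0.505-0.720), the ligand Jag2 with 0.574 (0.391-0.829), and Lfng, which modifies the receptors, with 0.622 (0.428-0.891). The ligand Dll4 had 0.707 (0.609-0.819) and the receptor Notch1 0.722 (0.609-0.853), whereas the receptor Notch4 had 1.27 (1.08-1.48) and the target Nrarp 1.33 (1.09-1.62). Hes1 was 0.495 in male and 2.12 in female members. Of 7 measured tip cell genes 3 were 1.5-fold or more below the other blood endothelial cells in both libraries. The limit on Esm1 and Angpt2 places sprouting cells among those others, so the choice of cells enters this. Between the genotypes 1 of the 7, the guidance receptor Unc5b, was lower with 0.504 (0.385-0.654). The chemokine receptor Cxcr4 was the 1 higher, with 1.81 (1.33-2.47), against 5.14% of all genes lower and 4.28% higher. The tip median was 0.04, and -0.51 without cycling-marked cells.

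Interferon gamma genes had medians of opposite sign with and without the limit on Cxcl9 that the rule sets. Among the members the interferon gamma list (20 of 25 genes measured) had a median of -0.20, with 0 genes 1.5-fold or more higher and 1, Irf8, lower. Over all genes 4.28% were higher and 5.14% lower. Cxcl9, which the rule holds to at most 4 UMIs per cell, was 1 of the 20, so the choice of cells enters this median. With the 32 ATG5 KO and 18 WT cells added that failed only that limit, the median was 0.64. In the other blood endothelial cells it was 0.87, with 15 of 22 genes higher, and no share over all genes is given for them. The rule places among them the 61 ATG5 KO and 31 WT cells with more than 4 UMIs of Cxcl9. Within the members, Gbp2, a guanylate-binding protein, had 115 CPM in ATG5 KO cells and 115 CPM in WT cells, a ratio of 1.005 (0.777-1.29), and Iigp1, a GTPase against intracellular parasites, 0.888 (0.785-1.004). In the other blood endothelial cells the ratio of Gbp2 was 3.52 and that of Iigp1 1.53. The type I list, 21 of 32 genes measured, had a median of 0.09 and no gene past 1.5-fold, and its median was 0.22 with no limit on Cxcl9.

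Cd74, the invariant chain of major histocompatibility complex (MHC) class II, had 69.9 CPM (53.7-89.4) in ATG5 KO cells and 138 CPM (119-159) in WT cells, a ratio of 0.506 (0.374-0.676) that was 2.96 with no limit on Cxcl9. It was 0.514 in male members and 3.03 in female members, which held 20 UMIs in the ATG5 KO library and 4 in the WT library. Its level was 0.0468 times that of free RNA in the ATG5 KO library and 0.0888 times in the WT library. MHC class I genes were closer together, with B2m at 0.885 (0.855-0.916), H2-D1 at 0.836 (0.796-0.876) and H2-K1 at 0.850 (0.808-0.894). H2-T23, at 0.641 (0.510-0.802), was the 1 of 17 past 1.5-fold, against 5.14% of all genes lower. H2-T23 had 0.717 without lymphatic-marked cells, where 0 of 17 were past 1.5-fold.

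The remaining lists had few genes past 1.5-fold, and over all 4669 genes 4.28% were higher and 5.14% lower. At these shares a list as short as most of these would hold few or none, so a count of 0 says little about it. Of 13 measured genes of core autophagy 0 were past 1.5-fold, with a median of -0.17. The lipidated marker Map1lc3b had 0.825 (0.684-0.993) and the cargo receptor Sqstm1 0.765 (0.657-0.888). Nuclear genes of oxidative phosphorylation had 0 of 32 past it, glycolysis 0 of 12, fatty acid oxidation 0 of 8 and caveolae 0 of 9. Endothelial transcription factors had 0 of 17 past it, and junctions 0 of 14, of which 2 are genes of the rule. Of 13 heat shock genes the chaperones Hspd1 and Hsph1 were higher, with 1.70 (1.33-2.16) and 1.51 (1.24-1.82). Without cycling-marked cells 0 of 13 were higher, Hspd1 having 1.45 and Hsph1 1.31. Of 10 coagulation genes 3 were lower, Vwf and Plat among them, and 0 higher, with a median of -0.13. Without lymphatic-marked cells 1 of 8 was lower and 2 were higher, with a median of 0.13. Of 12 cell cycle genes Tyms, which makes thymidylate, and the replication helicase Mcm4 were higher, with 1.91 (1.30-2.802) and 1.53 (1.05-2.22). Without cycling-marked cells 3 of these genes had 100 UMIs, 0 of them were higher, and the median was -0.20. The angiopoietin and Tie receptor list had 0 of 4 past it. Of 6 measured genes of metallothioneins and oxidative stress 2 were lower and 0 higher, with a median of -0.11. The 2 were the antioxidant enzymes Gpx1 and Prdx5, with 0.621 (0.508-0.756) and 0.458 (0.286-0.711). Without lymphatic-marked cells 1 of 5 was lower and 0 higher, with a median of 0.07.

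**Figure D5:**
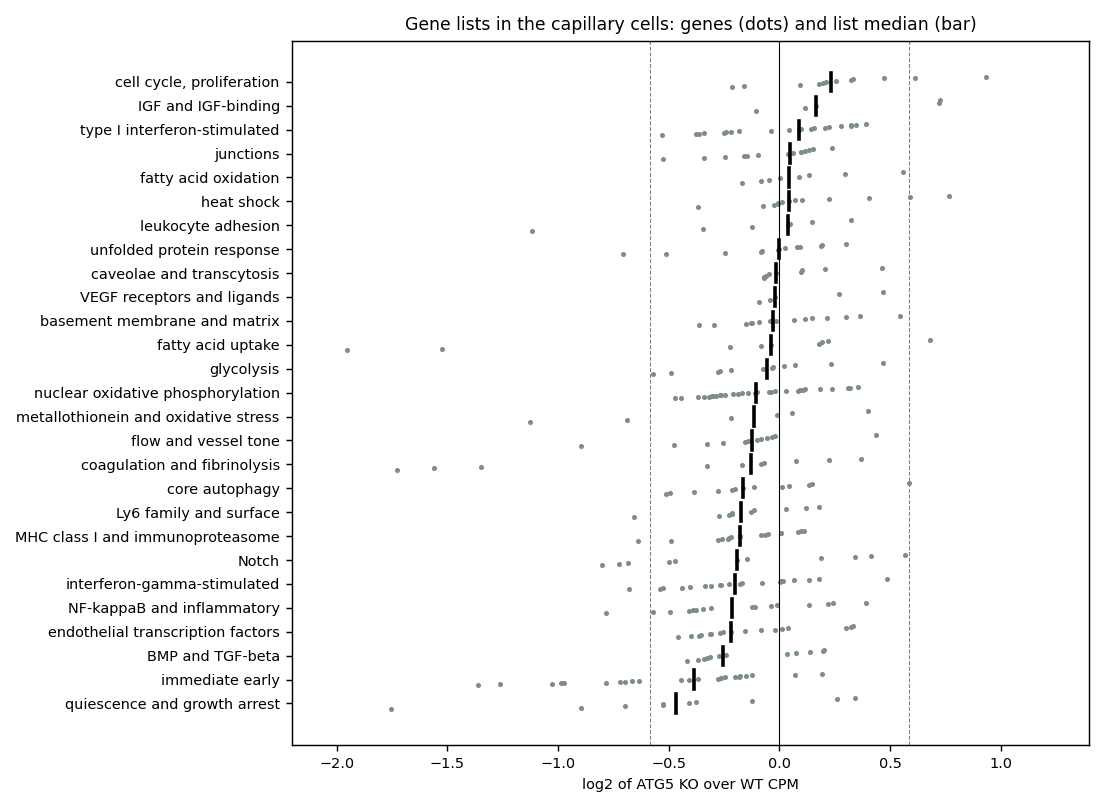
log2 ratio of ATG5 KO over WT CPM of single genes (dots) and list medians (bars) among the members, for the gene lists with at least 5 measured genes; dashed lines mark 1.5-fold, and Fn1 at -5.36 lies off the axis. The lists of quiescence and immediate early genes have the lowest medians, -0.47 and -0.39.

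Members varied among themselves most in Glycam1, Fabp4, Lyve1, Malat1 and Cd36, by the smaller of the library values. After thinning to 1500 UMIs, which left 213 ATG5 KO and 341 WT cells, the median ratio of variance to mean over genes was 1.20 in each library. Fabp4 reached 13.4 in the ATG5 KO library and 15.8 in the WT library, and Cd36 8.27 in the ATG5 KO and 12.5 in the WT library. Glycam1, a mucin of high endothelial venules, had 47.0 in the ATG5 KO and 26.4 in the WT library, with 93 of 107 ATG5 KO UMIs and 121 of 355 WT UMIs in 1 cell each. Lyve1, Mmrn1, Cpe and Ccl21a were carried by at most 5.36% of the members in each library. Egr1, Enpp2, Igfbp7, Sparc, Vim, Tmsb4x, Actb and the nuclear RNA Malat1 had ratios of variance to mean between 4.67 and 10.2.

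Across thinned cells, sums over the immediate early and heat shock lists were correlated, with a Spearman coefficient of 0.56 over 213 ATG5 KO cells and 0.58 over 341 WT cells. Type I and gamma interferon sums had 0.36 in ATG5 KO and 0.30 in WT cells, and capillary genes inside and outside the rule 0.38 in ATG5 KO and 0.43 in WT cells. Capillary genes outside the rule and immediate early genes had -0.04 in ATG5 KO and -0.06 in WT cells. The cells of a library share their preparation and were thinned to the same depth, and the type I and gamma lists share a pathway. The immediate early sum of a thinned cell averaged 19.3 ± 19.4 UMIs in the ATG5 KO library (SD over cells, median 13) and 23.5 ± 20.03 UMIs in the WT library (SD over cells, median 18).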

How the data were processed

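RNA of sorted endothelial and immune cells from lymph nodes was counted in 1 library per genotype. Per the file headers, the authors made the deposited counts (error-corrected UMIs per gene and cell barcode) with the BD Rhapsody WTA Analysis Pipeline, an mm10 reference and intronic reads included.

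Cells were rebuilt from all barcodes with at least 1200 UMIs, at least 200 genes and at most 25% mitochondrially encoded UMIs. Counts were summed over the members of a library and scaled to CPM without mitochondrially encoded genes. Intervals are exact at 95% (Poisson for levels, conditional binomial for ratios, Clopper-Pearson for shares), and ratios against 0 UMIs used 3 UMIs in its place. The members' sums held 901403 UMIs in the ATG5 KO library and 1375795 UMIs in the WT library, which sets the precision. Genes with at least 100 UMIs over both libraries were compared, with 1.5-fold as the limit, since 1 library per genotype allows no test. Named genes were the 15 higher and 15 lower that ranked first by the interval bound nearest to 1, the 20 highest and 10 lowest against the other blood endothelial cells, the 15 most variable among cells, and the members of gene lists. Fn1, Gbp2 in the other cells and the sexes' values of single genes were picked after values were seen. Some listed genes are not reported here. Members and lists were chosen with earlier results of these data known. Doublets were called with Scrublet at an expected rate of 6% and none was a member. Sex was read from Y-linked genes and Xist. Other cell limits, scalings (edgeR TMM factors included), gene filters and folds were tried, and the alternatives without lymphatic-marked and without cycling-marked cells were added after seeing the data. The interval and ratio code was tested on simulated data. Python 3.11.15, numpy 2.4.6, scipy 1.17.1, pandas 2.3.3, scanpy 1.11.5, matplotlib 3.10.9, R 4.3.3 and edgeR 4.0.16 were used.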

Additional observations from a re-analysis of the deposited data

Results flagged for a closer look

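For 9 of 156 gene ratios the value of ATG5 KO over WT was 1.5-fold or more above 1 in members of one sex and 1.5-fold or more below 1 in the other, and the difference between the sexes was not tested. Mest had 3.91 in male and 0.505 in female members, where 20 UMIs in ATG5 KO cells stood against 24 UMIs in WT cells. The other 8 were low in male and high in female members. Angptl4 had 0.195 in male and 1.61 in female members. The second value comes from 8 UMIs in ATG5 KO cells and 0 in WT cells, with 3 UMIs put in place of the 0. Plat had 0.266 in male and 1.82 in female members, with 15 UMIs in female ATG5 KO cells and 5 in female WT cells. Hes1 had 0.495 in male and 2.12 in female members, and Txnip 0.425 in male and 1.57 in female members. Cd74 had 0.514 in male and 3.03 in female members, and H2-Ab1, another gene of MHC class II, 0.440 in male and 3.63 in female members, where 12 UMIs in ATG5 KO cells stood against 2 in WT cells. Icam1, an adhesion receptor for leukocytes, had 0.539 in male and 1.75 in female members, and Mki67, a marker of cycling cells, 0.616 in male and 1.64 in female members.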

How the results depend on the processing

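No paired analysis was possible because there is 1 library per genotype. With a capillary gene sum of at least 6 the members were 38.7% of blood endothelial cells in ATG5 KO and 46.2% in WT, and Pgf had 0.654. With no limit on Cxcl9 the ATG5 KO share was 53.0%, the interferon gamma median 0.64, Cd74 2.96 and Slc27a3 1.03. With a Cxcl9 count of 0 the shares were 40.0% in ATG5 KO and 47.4% in WT. List medians cover the listed genes that reach the UMI limit in each setting's own cells. In male cells the shares were 39.6% in ATG5 KO and 50% in WT and the immediate early median -0.85. In female cells the shares were 55.4% in ATG5 KO and 48.2% in WT, and the immediate early median was 0.040. Only 791 genes had at least 100 UMIs in female cells, and of these 72 were higher and 67 lower. Female ratios were 0.505 for Mest, 1.61 for Angptl4, 1.82 for Plat, 2.12 for Hes1, 3.03 for Cd74 and 1.57 for Txnip. With at most 10% mitochondrial UMIs Slc27a3 had 1.23, by the mean of CPM over cells the interferon gamma median was 0.049, and without lymphatic-marked cells Plat had 1.27. Counts of higher and lower genes were 983 and 1003 of 9432 genes with at least 20 UMIs per gene. They were 17 and 50 of 1210 genes with at least 400 UMIs, and 16 and 64 of 4669 genes at 2-fold. The cause of these moves was not tested beyond the change in genes or cells that each setting makes. Each gene ratio was counted once per alternative. Of these values 1837 stayed within the counting interval of the main ratio, 270 left it and 11 changed sides. A change of side was counted only for genes 1.5-fold or more apart in the main setting. Other crossings of 1, such as that of Cd36 in female cells, are among the 1837 or the 270. Of the list medians 376 stayed and 17 moved, and of the counts and shares 37 stayed and 17 moved. Pooling of animals into 1 library per genotype limits every comparison, since spread between animals cannot be told apart from genotype.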
